A study of Mus musculus with 4 samples.

Results

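SSRP1 peaks were examined over 7 abundantly transcribed genes in the pluripotent E14 line of mouse embryonic stem cells: the actins Actb and Actg1, the chaperone Hspa8, the translation elongation factors Eef1a1 and Eef2, and the nuclear long noncoding RNAs Malat1 and Neat1. The members were all peaks that overlap fixed intervals on the genome build mm9. These are chr5:143660000-143672000 for Actb, chr11:120203000-120213000 for Actg1, chr9:40605000-40618000 for Hspa8, chr9:78322000-78335000 for Eef1a1, chr10:80637000-80647000 for Eef2, chr19:5793000-5805000 for Malat1 and chr19:5822000-5848000 for Neat1. The intervals held 37 of 5011 peaks of replicate 1 and 23 of 2342 peaks of replicate 2.

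The series comprises 2 SSRP1 ChIP-seq samples and 2 inputs of untreated cells grown in serum and leukemia inhibitory factor, fixed with 1% formaldehyde for 10 min. Each ChIP sample has its own peak list, and values of the inputs were not analysed here. As separate cultures are not named in the labels, the spread between replicates may be technical. No expression values were used, so neither the high transcription of the 7 genes nor the cell type was checked in these data. No mm9 gene annotation was used either, so positions are given within the intervals and not by exon, intron or UTR.

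SSRP1 pairs with SPT16 to form FACT, a histone chaperone that loosens nucleosomes ahead of RNA polymerase II and helps to put them back behind it. FACT has long been tied to the bodies of actively transcribed genes. Actb and Actg1 encode the cytoplasmic actins of the cytoskeleton, and Hspa8 encodes the constitutive Hsc70 chaperone, which folds new proteins and strips clathrin from vesicles. Eef1a1 delivers aminoacyl-tRNA to the ribosome and Eef2 moves the ribosome along the mRNA. Malat1 RNA collects in nuclear speckles, and Neat1 RNA is the scaffold of paraspeckles and exists as a short and a long isoform that share their start.

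Promoter sequences show what lies directly before the start of the genes whose intervals carry these peaks. RefSeq held promoter sequences for 4 of the 7 genes, on build GRCm38.p6, which is not the build of the peaks. They were therefore not placed against the peaks. No sequence was printed for Actb, Hspa8 and Neat1. Each line gives the 250 bases before the annotated start, 5′ to 3′, from chr11:120348496-120348745 (minus strand) for Actg1, chr9:78481725-78481974 (minus) for Eef1a1, chr10:81176381-81176630 (plus) for Eef2 and chr19:5802673-5802922 (minus) for Malat1. Capitals mark TATAAA (the TATA box core), GGGCGG (the GC box) on either strand, and the CArG box, which serum response factor is known to bind.
Actg1: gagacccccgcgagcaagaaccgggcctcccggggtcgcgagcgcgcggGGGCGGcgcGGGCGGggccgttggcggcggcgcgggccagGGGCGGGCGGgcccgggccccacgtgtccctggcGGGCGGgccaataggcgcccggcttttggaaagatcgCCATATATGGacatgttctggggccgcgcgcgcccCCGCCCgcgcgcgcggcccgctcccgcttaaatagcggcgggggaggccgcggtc
Eef1a1: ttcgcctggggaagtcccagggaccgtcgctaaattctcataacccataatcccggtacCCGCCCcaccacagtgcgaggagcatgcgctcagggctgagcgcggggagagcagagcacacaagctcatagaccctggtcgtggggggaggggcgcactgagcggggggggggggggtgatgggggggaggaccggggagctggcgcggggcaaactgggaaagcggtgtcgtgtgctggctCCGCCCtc
Eef2: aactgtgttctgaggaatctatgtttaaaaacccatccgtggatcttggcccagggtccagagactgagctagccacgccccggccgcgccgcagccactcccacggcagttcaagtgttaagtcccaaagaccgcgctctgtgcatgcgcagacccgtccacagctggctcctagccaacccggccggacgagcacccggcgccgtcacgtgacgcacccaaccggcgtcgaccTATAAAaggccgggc
Malat1: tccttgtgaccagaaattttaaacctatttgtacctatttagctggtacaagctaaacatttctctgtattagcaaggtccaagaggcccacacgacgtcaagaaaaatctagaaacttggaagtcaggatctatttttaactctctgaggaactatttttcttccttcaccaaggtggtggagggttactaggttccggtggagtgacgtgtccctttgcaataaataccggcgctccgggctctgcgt

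The 4 promoters differed in these letters. Actg1 held 5 GC boxes on the printed strand and 1 on the other, of which the boxes starting 161 and 157 bases before the start overlap each other, and a CArG box starting 90 bases before the start. Eef1a1 held 2 GC boxes, both on the other strand. Eef2 held the letters TATAAA at 1 place, beginning 15 bases before the annotated start, and Malat1 held none of the 3 motifs. Of 32851 RefSeq promoters of the same length, 12.4% held TATAAA, 32.7% GGGCGG and 1.47% a CArG box on either strand. The GC content was 79.2% in Actg1, 68% in Eef1a1, 62.8% in Eef2 and 44% in Malat1, against a median of 52.4% (interquartile range 45.2 to 61.2%) over all promoters. The motifs describe the sequence and say nothing of which factors bound there.

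All 7 intervals held a peak in both lists, so none was empty. When the spanned genome was tiled in windows of 12 kb, 1.68% of windows held a peak of replicate 1, 0.733% a peak of replicate 2 and 0.49% a peak of each. These windows include gene-free and unmappable stretches, which the gene intervals do not represent. The genes were also chosen with earlier results of these data known, so the count of 7 is a description and no independent result. The peaks of the 7 genes included wide ones, and many ran close together. In all they covered 44.8% of the intervals' 96.007 kb in replicate 1 and 41.1% in replicate 2. The windows were covered to 0.0851% and 0.0516% on average. Of 210773 windows, 167 in replicate 1 and 144 in replicate 2 had a covered share at least as high as that of the least covered member interval, Neat1. The windows are shorter than the 26 kb Neat1 interval, and those over the 7 genes were not left out.

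**Figure D1:**
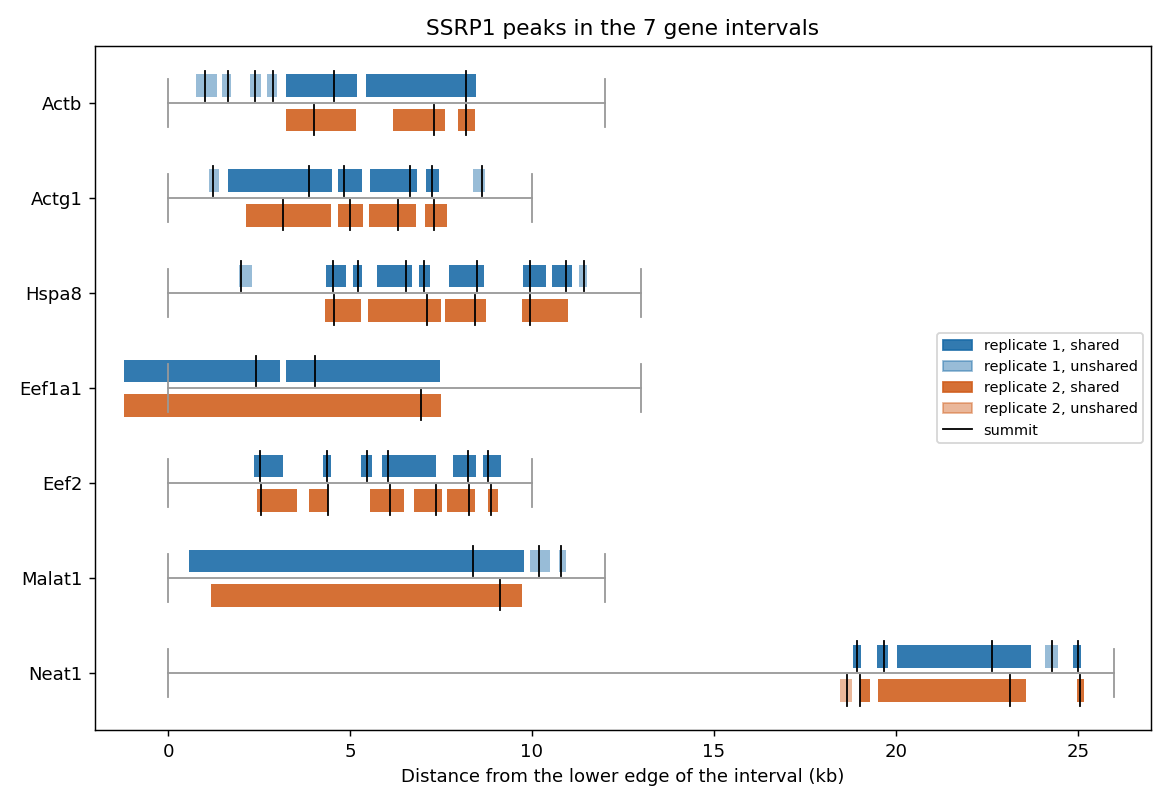
Peaks of replicate 1 (blue, upper row) and replicate 2 (orange, lower row) in each interval, as distance in kb from the interval's lower edge on mm9; pale boxes are peaks without an overlapping peak in the other list and black ticks are summits. Peaks fill most of the Malat1 interval and leave the first 18.8 kb (replicate 1) and 18.5 kb (replicate 2) of the Neat1 interval free.

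The values per peak are those of the authors' peak caller: a fold (the ratio of signal to local background at the summit) and a −log10 q. Both serve here to describe peaks and to rank them within 1 list. The number of ChIP fragments over each summit and the local background were recovered from the fold and p-value, assuming the formulas of MACS2. Most peaks of both lists allowed more than 1 solution, and the one nearest a whole number of fragments was kept. The lists gave no read totals. A member's summit in replicate 1 rested on 14 to 159 recovered fragments (median 27), and one in replicate 2 on 33 to 206 (median 90), against medians of 19 and 44 over the whole lists.

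The actin genes carried strong, broad peaks in both lists. Actb had 6 peaks in replicate 1 and 3 in replicate 2. Its strongest peak of replicate 1, at 143665437 to 143668468 (3032 bp), had a fold of 22.3, a −log10 q of 129 and 131 fragments. In replicate 2 the strongest was at 143667956 to 143668431 (476 bp), with a fold of 23.9, a −log10 q of 78.1 and 174 fragments. The 2 summits lay 7 bp apart, 8.19 and 8.20 kb from the interval's lower edge, so both samples placed the maximum of Actb at the same point. The single peak of replicate 1 there met 2 peaks of replicate 2, with folds of 10.2 and 23.9. A second broad peak was found between 3.24 and 5.19 kb, with folds of 13.4 in replicate 1 (1943 bp) and 9.19 in replicate 2 (1932 bp). Between 0.775 and 2.99 kb, replicate 1 alone had 4 small peaks with folds from 4.29 to 5.61. The covered share of the Actb interval was 53.0% in replicate 1 and 32.1% in replicate 2, the widest gap among the 7 genes. These 4 peaks made up 1386 bp of the 2505 bp by which replicate 1 covered more of Actb.

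Actg1 had 6 peaks in replicate 1 and 4 in replicate 2, and all 4 of replicate 2 had a partner. The strongest lay at 120208540 to 120209852 in replicate 1 (fold 17.03, −log10 q 63.6, 71 fragments). In replicate 2 it lay at 120208517 to 120209820 (fold 15.4, −log10 q 40.7, 111 fragments). The 2 peaks were 1313 and 1304 bp wide, and their summits were 335 bp apart. On the lower side a broader peak had folds of 13.4 (2867 bp) and 10.2 (2351 bp), and between them lay a peak with folds of 6.62 and 6.41. A smaller peak on the upper side had folds of 4.90 and 6.69. Replicate 1 added 1 unshared peak at each end, with folds of 4.92 and 4.44, and 58.3% of the Actg1 interval was covered in replicate 1 and 49.6% in replicate 2.

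Hspa8 was the gene most divided into separate peaks in replicate 1, with 9 peaks, 7 of them shared, against 4 in replicate 2. Its folds in replicate 1 ran from 3.65 to 10.6, with the highest at 40609348 to 40609886 (539 bp, 46 fragments). In replicate 2 all 4 folds lay between 12.5 and 16.4, with the highest at 40612605 to 40613750 (1146 bp, 119 fragments). These folds exceed those of replicate 1, but each is taken over its own background. With the recovered pileup over the lowest background of each list, the 4 peaks of replicate 2 ranged from 19.5 to 23.9, and 2 of them lay below the highest of replicate 1, 20.2. The strongest peak thus differed between the samples, and the 2 summits were 3899 bp apart. The summits themselves recurred: those of replicate 2 lay 7, 58, 53 and 19 bp from the nearest summit of an overlapping peak of replicate 1. In 3 of the 4 cases 2 peaks of replicate 1 overlapped 1 wider peak of replicate 2. The covered share of the Hspa8 interval was 36.9% in replicate 1 and 41.7% in replicate 2.

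Eef1a1 was covered by long stretches. Replicate 1 had 2 peaks of 4295 and 4243 bp separated by 153 bp, with folds of 7.02 and 5.61 and 52 and 46 fragments. Replicate 2 had 1 peak from 78320798 to 78329510, which at 8713 bp was the widest of its whole list, with a fold of 17.7 and 128 fragments. All 3 peaks together spanned nearly the same stretch, and within the interval 100% of the bases covered in replicate 1 were covered in replicate 2. The stretch began 1.22 kb (replicate 1) and 1.20 kb (replicate 2) below the interval and ended 7.47 and 7.51 kb into it, leaving the upper part of the interval without a peak. Summits did not coincide, as the summit of replicate 2 lay 4527 bp from the strongest of replicate 1 and 2898 bp from the other. The recovered background at the strongest Eef1a1 summit was 6.55 in replicate 1, which is 2.88 times the lowest of that list, and 2.07 in replicate 2, the lowest of its list.

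Eef2 had the lowest maximum of the 7 genes in both lists, in replicate 1 by a narrow margin (fold 7.01 against 7.02 for Eef1a1). Its peaks recurred, but many of them only in part. Both lists had 6 Eef2 peaks, and all 12 had a partner, for which 1 common base was enough. Of the covered Eef2 bases, 75.6% in replicate 1 and 68.3% in replicate 2 were covered in both. The latter was the lowest such share of the 7 genes in replicate 2. Summits lay at most 86 bp from that of a partner, with 2 exceptions. These were 629 bp for the peak at 80642313 in replicate 1 and 1334 bp for that at 80643766 in replicate 2. Folds ran from 4.00 to 7.01 in replicate 1 and 2.94 to 6.83 in replicate 2, and their ranges overlapped. The strongest was the first on the lower side in both samples, at 80639372 to 80640151 in replicate 1 (fold 7.01, 37 fragments) and 80639447 to 80640535 in replicate 2 (fold 6.83, 48 fragments), with summits 27 bp apart. This is the side of the interval where reading of Eef2 begins, as the RefSeq promoter puts it on the plus strand and the orientation is taken to be the same on mm9. The median fold of its peaks was 5.55 in replicate 1 and 4.86 in replicate 2, and the latter was below the median of that whole list, 5.45. The covered share of the Eef2 interval was 39.3% and 43.4%. Eef2 was also the only member without a peak of −log10 q of 10 or more in replicate 2.

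Malat1 was the gene whose interval was covered most in both lists. A single peak from 5793583 to 5802772 in replicate 1 was 9190 bp wide, the widest of its list, and in replicate 2 a peak from 5794183 to 5802726 was 8544 bp wide, the second widest. Their folds were 21.2 and 19.8, with −log10 q of 151 and 75.3 and with 159 and 188 fragments. Replicate 1 ranked this Malat1 peak 25th and replicate 2 ranked it 57th by −log10 q. The summits were 716 bp apart, 8.39 and 9.11 kb from the lower edge. Since RefSeq places Malat1 on the minus strand, these summits lie on the side of the interval where its reading begins. Actg1 and Eef1a1 are on the minus strand too. From the lower edge, the strongest Actg1 summits lay at 66.5% (replicate 1) and 63.2% (replicate 2) of the interval, also on the side of its start. Eef1a1 differed between the lists. Its strongest summit lay at 18.6% in replicate 1, on the side away from its start, and at 53.4% in replicate 2, near the middle. The broad Malat1 peak of replicate 2 lay wholly inside that of replicate 1. Replicate 1 added 2 narrow unshared peaks above it, with folds of 5.10 and 3.67, so that 82.9% of the Malat1 interval was covered in replicate 1 and 71.2% in replicate 2.

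Neat1 differed from Malat1 in where its peaks lay. No peak of either list fell in the first 18.8 kb (replicate 1) or 18.5 kb (replicate 2) of its 26 kb interval, and all peaks lay within the remaining part. One broad Neat1 peak dominated, at 5842039 to 5845724 in replicate 1 (3686 bp, fold 19.3, −log10 q 85.5, 91 fragments) and 5841516 to 5845576 in replicate 2 (4061 bp, fold 28.2, −log10 q 98.5, 206 fragments). Its summits were 505 bp apart, and its fold in replicate 2 was the highest of all members in that list. Around it, replicate 1 had 4 narrow Neat1 peaks with folds from 4.25 to 6.26, 3 of them shared, and replicate 2 had 3 with folds from 3.03 to 5.20, 2 of them shared. The covered share of this interval, the longest of the 7, was 18.4% in replicate 1 and 18.6% in replicate 2. In bases this was 4791 and 4843 bp, more than in the Eef2 interval (3927 and 4344 bp). Malat1 and Neat1 are neighbours, and in the 16.999 kb between their intervals replicate 1 had 2 peaks, with folds of 2.82 and 9.03, and replicate 2 had none.

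**Figure D2:**
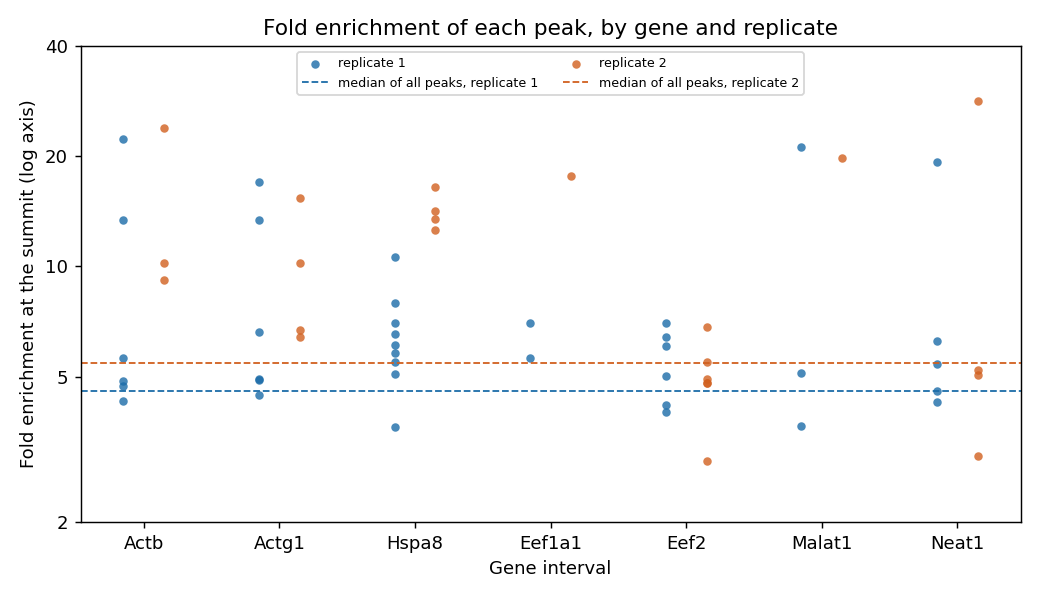
Fold enrichment at the summit (log axis) of every peak in each gene interval, 1 point per peak, with dashed lines at the median of all peaks of each list (4.57 in replicate 1, 5.45 in replicate 2). On this scale the 4 Hspa8 peaks of replicate 2 lie above all Hspa8 peaks of replicate 1, but over the lowest background of each list 2 of them do not; the Eef2 peaks of the lists overlap.

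Peaks of the 7 genes were higher than most of their lists, but not the highest. Their median fold was 5.61 in replicate 1 and 9.19 in replicate 2, against 4.57 and 5.45 over all peaks. Of the members, 6 of 37 in replicate 1 and 5 of 23 in replicate 2 were among the 100 highest folds of their list. The lists hold 5011 and 2342 peaks, so the 100 highest are a larger share of replicate 2. The highest member fold, 22.3 in replicate 1 and 28.2 in replicate 2, compares with 104 and 54.0 in the whole lists. The weakest member of replicate 1 had a −log10 q of 2.72. In replicate 2 the weakest had 1.48, which is the lowest value of that list.

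By their medians, the members stood further from the lists in width than in fold. The median width was 539 bp in replicate 1 and 993 bp in replicate 2, against 301 and 346 bp over all peaks. Neat1 was the only gene with median widths below those of the whole lists, at 289 and 287 bp. Peaks 1 kb wide or more made up 9 of 37 members in replicate 1 (24.3%) and 11 of 23 in replicate 2 (47.8%), against 5.53% and 12.3% of the whole lists. Every gene had such a peak in both lists except Hspa8, which had none in replicate 1 and 3 in replicate 2. Since adjacent peaks of 1 gene share their source, these shares describe the lists and were not tested.

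**Figure D3:**
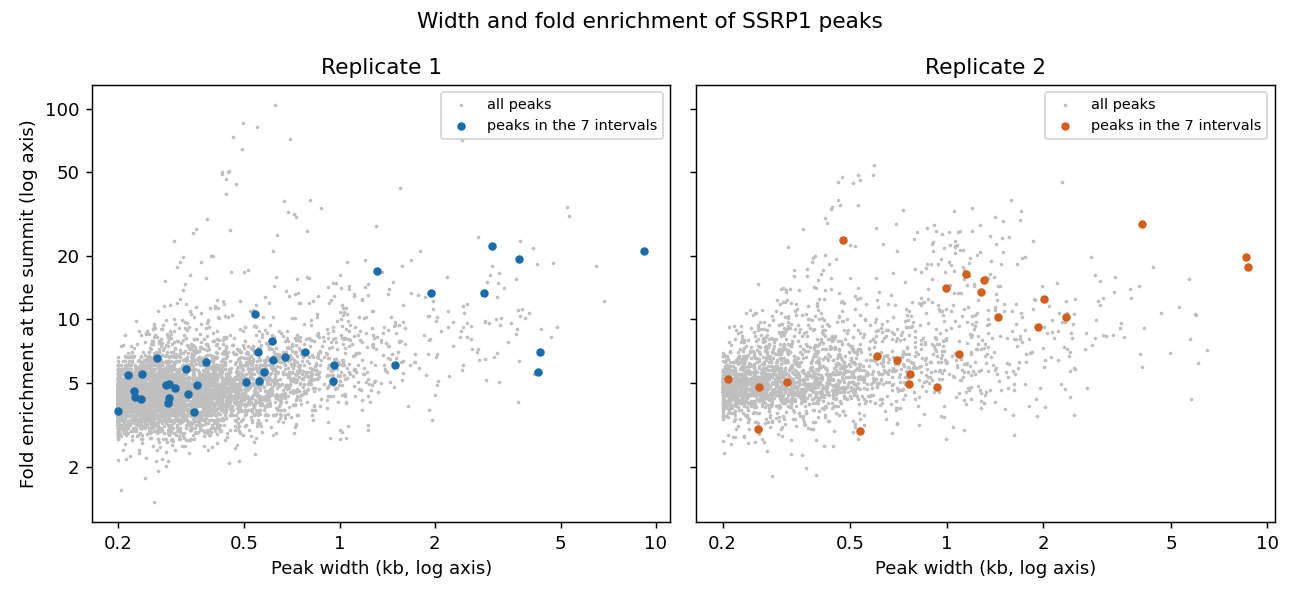
Peak width in kb against fold enrichment at the summit (both log axes) for all peaks of each list (grey) and the peaks in the 7 intervals (coloured). The widest peak of each list, Malat1 at 9190 bp in replicate 1 and Eef1a1 at 8713 bp in replicate 2, lies at the right edge, and no member comes near the highest folds.

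Many breaks between peaks were short. With peaks of a list merged where at most 1 kb apart, the 37 members of replicate 1 became 10 regions and the 23 of replicate 2 became 9. Actb, Actg1, Eef1a1 and Malat1 each became 1 region in both lists. The Actb region was 7.69 kb long in replicate 1 and 5.19 kb in replicate 2, the Actg1 region 7.59 and 5.52 kb, the Eef1a1 region 9.45 and 8.71 kb, and the Malat1 region 10.4 and 8.54 kb. The Eef1a1 region of replicate 1 took in at least 1 peak below the interval that is not a member. It began at 78320021, while its first member began at 78320779, near the start of the region in replicate 2, 78320798. Hspa8 kept 3 regions in replicate 1 and became 1 of 6.68 kb in replicate 2. Eef2 kept 2 in both lists. Neat1 became 1 region of 6.26 kb in replicate 1 and kept 2 in replicate 2.

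Other peaks covered little of the stretches beside the intervals. In stretches of the same length on each side of each interval, peaks that did not themselves reach into one of the 7 intervals were found in 6 of 14 stretches in replicate 1 and 1 of 14 in replicate 2. They covered 2.17% and 0.244% of those stretches, against the 44.8% and 41.1% of the intervals. Members that ran out of an interval are not in these shares, and the Eef1a1 peaks ran 1.22 kb (replicate 1) and 1.20 kb (replicate 2) below theirs. The upper stretch of Malat1 lies within the lower stretch of Neat1, so its 2 peaks of replicate 1 (581 bp) were counted in both. With all peaks counted the shares were 6.73% and 4.37%, which include Malat1 peaks, as the lower stretch of Neat1 reaches into the Malat1 interval. In the shares without members, the length of that part was counted but its peaks were not. Actg1 and Hspa8 had no peak in either flank in either list. The intervals were drawn around the genes, so this describes how the peaks fit them.

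Replicates overlapped more in these genes than in the lists at large. Of replicate 1's members, 26 of 37 overlapped a peak of replicate 2 by at least 1 bp, which is 70.3% (exact 95% interval 53.0 to 84.1%), against 27.7% of its whole list. Of replicate 2's members, 22 of 23 were shared, which is 95.7% (78.1 to 99.9%), against 54.9%. The intervals cover counting error only and treat neighbouring peaks as independent, so they are too narrow. With summits within 200 bp as the rule the shares were lower, 37.8% and 60.9% of the members against 20.2% and 43.2% of the whole lists. By length, 35377 bp were covered in both samples, which is 82.3% of the covered bases of replicate 1 and 89.6% of those of replicate 2, against 31.3% and 51.3% over the whole lists. The 11 unshared members of replicate 1 were small, with folds from 3.65 to 6.26, widths from 200 to 575 bp and 14 to 36 fragments. The 1 unshared member of replicate 2 was a Neat1 peak with a fold of 5.06 and 35 fragments. The shared members were larger: replicate 1's had a median fold of 6.48 and a median width of 645 bp, and replicate 2's 9.70 and 1041 bp. The part of width and strength in the higher shares of these genes was not tested.

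**Figure D4:**
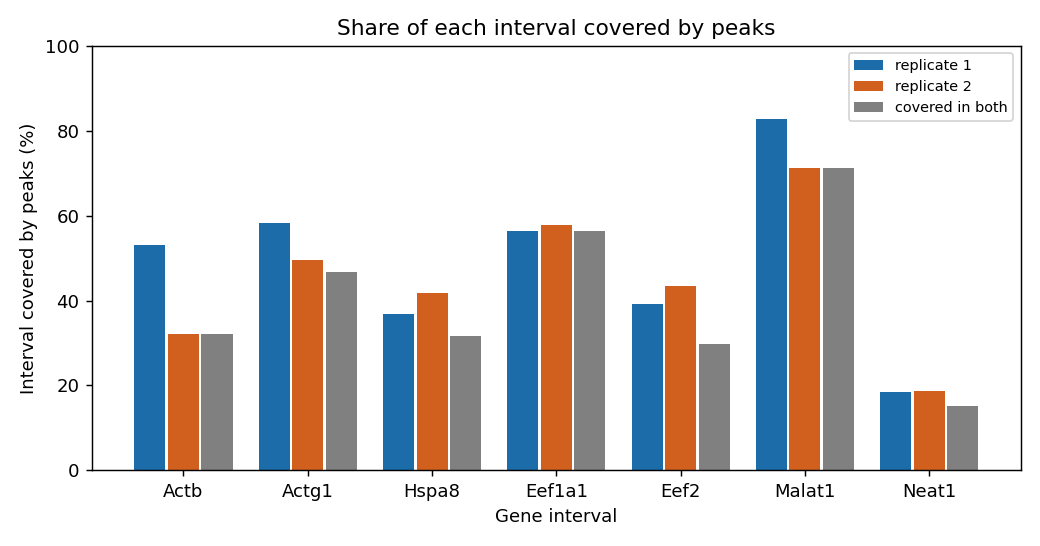
Percent of each interval's bases covered by peaks of replicate 1 (blue), of replicate 2 (orange) and of both (grey). By share, Malat1 is covered most (82.9% and 71.2%) and Neat1, whose interval is the longest at 26 kb, least (18.4% and 18.6%). Actb shows the widest gap between replicates (53.0% and 32.1%).

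The order of the genes was similar in both samples, with exceptions. By strongest fold, Actb, Malat1, Neat1 and Actg1 led in replicate 1 (22.3, 21.2, 19.3 and 17.03), followed by Hspa8 (10.6), Eef1a1 (7.02) and Eef2 (7.01). In replicate 2 Neat1 led (28.2), followed by Actb (23.9), Malat1 (19.8), Eef1a1 (17.7), Hspa8 (16.4), Actg1 (15.4) and Eef2 (6.83). Spearman's rho over the 7 genes was 0.75 for the strongest fold and 0.857 for the covered share, as a description of 2 lists that share the same gene intervals. The covered share also depends on the interval lengths, which run from 10 to 26 kb and are the same in both lists. Eef2 was last in both orders by fold. With 1 value per gene and sample, differences between neighbours in these orders cannot be set against replicate error.

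The gap between the samples depended on the measure used. The strongest fold was higher in replicate 2 for 4 genes (Actb, Hspa8, Eef1a1 and Neat1), with ratios of replicate 2 over replicate 1 from 0.902 for Actg1 to 2.52 for Eef1a1. With the recovered pileup, in which each fragment of replicate 2 counts as 0.416, divided by the lowest background of its list, the ratio was 1.13 for Eef1a1, 1.18 for Hspa8 and 1.04 for Neat1. It was 0.607 for Actb, so that Actb changed sides. The ratio went from 0.936 to 0.541 for Malat1, from 0.974 to 0.593 for Eef2 and from 0.902 to 0.715 for Actg1. The recovered background at the members' summits was at the lowest of the list in 3 of 37 peaks of replicate 1 and 14 of 23 of replicate 2, against 11.9% and 49.1% of the whole lists. It was at least 2 times the lowest in 14 of 37 (37.8%) and 2 of 23 (8.70%), against 18.02% and 9.74%. The part of this background in the differences was not tested, and these values compare the lists and measure no change in binding.

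**Figure D5:**
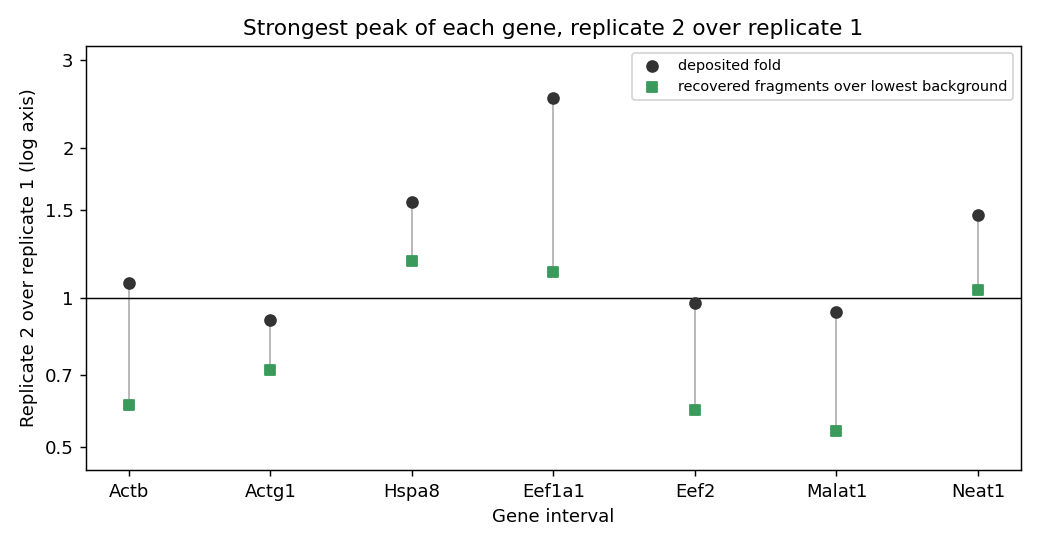
Ratio of replicate 2 to replicate 1 (log axis) for the strongest peak of each gene, on the deposited fold (circles) and on recovered fragments over the lowest background of the list (squares). For Eef1a1 the ratio is 2.52 on the first scale and 1.13 on the second, and for Actb it is 1.07 and 0.607, on either side of 1.

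Actb, Actg1, Hspa8 and Eef1a1 are known to have processed pseudogenes elsewhere in the genome, with sequence close to their exons. How the authors treated reads that map to several places is not given in the sources used here, so peaks over the exons of these 4 genes may hold reads of other copies or lack reads of their own. This was not tested.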

How the data were processed

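Peak lists of 2 SSRP1 ChIP samples (replicates 1 and 2, by the labels' titles) were used, and the 2 inputs have no values here. The submitters' processing notes name mm9 as build and MACS2, STAR and deepTools as tools, with no roles. The control and the settings were not given in the sources used here. Every list was called on its own sample, per the peak names in the files. Per the layout of the deposited files, each peak has a start, end and summit, a fold enrichment (a ratio), a −log10 p and a −log10 q. The deposited score, which equals 10 times the −log10 q cut to a whole number in 100% of peaks, was not used further.

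Peaks were handled in pandas 2.3.3 (Python 3.11.15), and positions count from 1. Pileup and background were solved from fold and p-value by MACS2's formulas (scipy 1.17.1). More than 1 solution was found for 4616 of 5011 peaks of replicate 1 and 1238 of 2342 of replicate 2. The solution nearest a whole number of fragments was kept. The pileup was then a whole number of fragments, within 0.02, in 100% of peaks of both lists. The weight per fragment, fitted on the same peaks, was 1 in replicate 1 and 0.416 in replicate 2. As the choice of solution favours whole numbers, this share is no independent check of the recovered values. The lowest background was 2.28 and 2.07. Peaks overlapping the other list by 1 bp were shared. Windows of 12 kb tiled each chromosome between its first and last peak. Exact intervals are Clopper-Pearson. The functions were tested on simulated data. No significance test was made.

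All 7 genes are named by rule. Genes, intervals and measures were chosen with earlier results of these data known, and the promoter motifs after the promoters had been read. Alternatives were stricter q minimums, other overlap rules and window sizes, merging, high background and either list alone.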

Additional observations from a re-analysis of the deposited data

How the results depend on the processing

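Of 34 recomputed values, 22 stayed within the limits set for them, 11 moved and 1 reversed. Each of the 7 intervals held a peak in both lists with a −log10 q minimum of 5, with summits inside the interval and with intervals widened by 5 kb; with a minimum of 10, 6 did, as Eef2 had none in replicate 2. Either list alone gave 7 intervals, and 39480 to 42971 covered bases in place of 47074 in either list. A minimum of 10 left 20 and 13 member peaks in replicates 1 and 2, merging within 1 kb left 10 and 9, and leaving out peaks over 2 times the lowest background left 23 in replicate 1. Windows of 26 kb, the length of the Neat1 interval, raised the background shares to 3.31% (replicate 1), 1.42% (replicate 2) and 0.982% (both), as longer windows hold more peaks. With summits within 200 bp as the rule, 37.8% and 60.9% of members were shared (20.2% and 43.2% of the whole lists). With a minimum of 5 in both lists, 62.5% of replicate 1's and 100% of replicate 2's members were shared. A minimum of 10 gave 75% and 92.3%. The median ratio of the strongest peaks, replicate 2 over replicate 1, went from 1.07 to 0.715 with recovered fragments over the lowest background, since the divisor differs. No paired analysis was possible because no values of the inputs, whose replicate numbers match those of the ChIP samples, were analysed here. The members' summits rest on as few as 14 fragments in replicate 1 and 33 in replicate 2, which limits the precision of their folds.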
